A study of Glycine max with 24 samples.

Results

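The whole life of the soybean cotyledon was followed here by setting its last sampled stage, C-III, against its first, C-I. The C-I samples came from Williams-82 seedlings raised in closed boxes on Murashige and Skoog medium, whose cotyledons at day 4 had just come up, green and still shut. C-III cotyledons were taken 27 days after planting from Williams-82 plants in soil, when they had begun to yellow and shrink. Each stage had 3 libraries, each from 1 pair of cotyledons of a separate plant, and no transgene or treatment was applied at either stage. All plants had 12 h of light a day and were sampled at the same hour of the afternoon. An intermediate stage, C-II (15 days, also in soil), served to estimate the spread between replicates and to place the changes in time. Because the medium changed together with age, effects of age and of growth on medium or in soil cannot be told apart in any value below.

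Members were all transcripts with at least 1 read in 3 or more of the 6 libraries of C-I and C-III. This took in 56531 of the 73320 transcripts in the table, at 40692 of 54175 loci. Transcripts with a read in exactly 3 libraries, just inside the limit, numbered 4579 and had a median of 12 reads over the 6 libraries. The 3740 just outside it, with a read in 2 libraries, had a median of 4 reads. A read was found in all 6 libraries for 39653 transcripts and in none for 8782. A further filter of 10 reads summed over the replicates of a stage left 52394 of the members in the test.

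A soybean cotyledon is a storage leaf. Filled with protein and oil in the seed, it is lifted above the soil at germination, turns green and photosynthesizes while its reserves are broken down and exported, and is then shed. Dismantling of chloroplasts in an ageing leaf organ frees nitrogen held in photosynthetic protein, and NAC and WRKY transcription factors are known regulators of that process in Arabidopsis. Chlorophyll is removed at the same time by a short pathway of magnesium removal, phytol cleavage and ring opening.

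Levels are given as normalized counts, which are reads per transcript divided by the size factor of the library. Fold changes are differences between the stage means of log2(normalized count + 1), which understate the change of transcripts with few reads. A transcript was called higher or lower at an adjusted p below 0.05 and a log2 fold change beyond 1.5 in either direction. A change written from one mean to another runs from C-I to C-III, and the value after ± is the SD of the 3 libraries unless SE is written. p-values measure the spread between 3 pairs of cotyledons a stage.

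Libraries held from 2389927 to 16450093 reads at C-I and from 3930823 to 20839594 at C-III, and 1 read was worth between 0.278 and 2.99 normalized counts in these 6 libraries. Values of 8.96 and below in the shallowest library, the first of C-I, are therefore at or under 3 reads. The first principal component of the 9 cotyledon libraries took 61.8% of the variance and placed the C-I libraries apart from all others. Between-library correlations of the log2 values ran from 0.916 to 0.956 within C-I, from 0.942 to 0.967 within C-III and from 0.643 to 0.692 between them. No library stood apart from its stage.

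Of the 52394 members tested, 7437 were higher and 8916 lower at C-III than at C-I, 14.2% and 17% of them (limma, Benjamini-Hochberg adjusted p). Over all 53357 transcripts tested the shares were 14% and 16.8%, with a median log2 fold change of -0.03, so the calls were spread over both directions. All 3 libraries of one stage lay above all 3 of the other for 57.9% of the transcripts tested. Taking for each of 38128 genes its most abundant transcript, 5964 genes were higher (15.6%) and 7033 lower (18.4%). The median called rise was 5.84-fold and the median called fall 6.27-fold. In 1370 of the called genes the change was beyond 5 on the log2 scale, and 12809 of the 12997 had no overlap between the libraries of the stages.

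**Figure D1:**
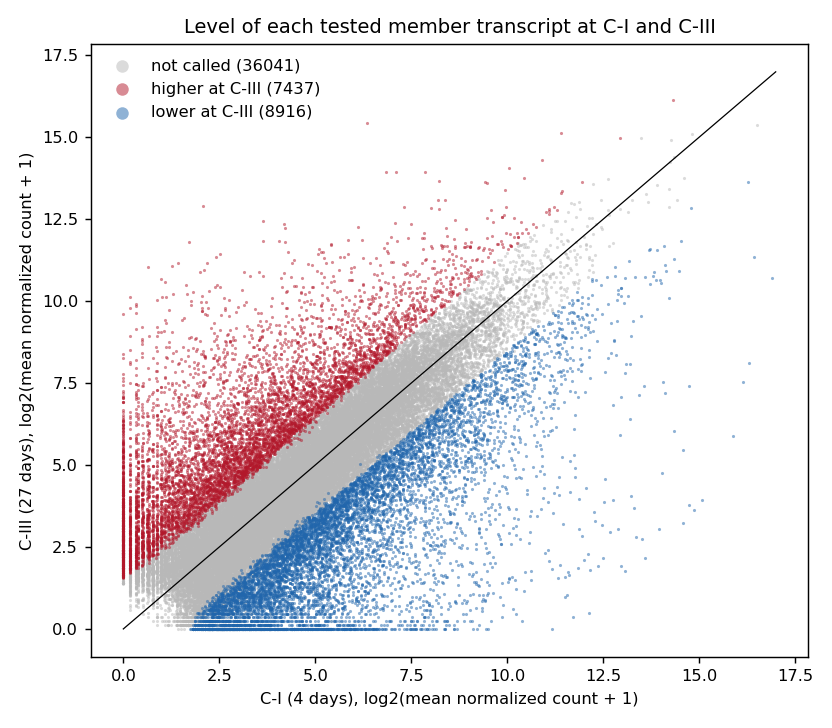
Mean level of each tested member at C-III (vertical) against C-I (horizontal), both as log2(mean normalized count + 1), with the line of equal level. Transcripts called higher at C-III (7437, red) and lower (8916, blue) lie on both sides of 36041 that were not called (grey).

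Isoforms of a gene were not called in opposite directions. Of 9062 genes with 2 or more transcripts tested, 3115 had at least 1 called, 709 had all of them higher and 901 had all of them lower. A gene with 1 transcript higher and another lower was not found (0 by limma on the log2 values, 0 by limma with voom weights), and at an unadjusted p under 0.05 there were 25. The median gap between the extreme isoforms of a gene was 0.56 on the log2 scale. By chromosome, the share of genes higher at C-III ran from 13.5% on chromosome 5 to 18.4% on chromosome 16, and the share lower from 16.9% on chromosome 20 to 19.9% on chromosome 7.

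The most abundant transcripts changed in make-up. The 100 transcripts with the highest mean level at C-I took 24.3 to 27.4% of the normalized counts in the C-I libraries and 7.98 to 9.25% in the C-III libraries, and 77 of them fell while 2 rose. The 100 highest at C-III took 17.3 to 19.3% of the counts at C-III and 8.27 to 10.1% at C-I, with 56 higher and 2 lower. The sets had 23 transcripts in common. Each set was chosen by its level at a stage that also enters the comparison. That choice by itself favours falls in the C-I set and rises in the C-III set, and likewise the lower shares at the other stage. How much of the lean came from the choice was not tested, so these shares and counts are given as a description. Reads in all 3 C-I libraries and none at C-III were found for 1121 members, of which 120 had a mean of at least 50 at C-I. The reverse pattern was found for 773 members, of which 46 had a mean of at least 50 at C-III. Both sets met the member rule only through the stage with reads. Their median levels there were 6.84 and 5.02, near the limit of detection, and 918 and 642 of them were tested.

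For gene groups, the text of the study's supplementary sheets was used, which names 3972 genes, 3599 of them tested here by their most abundant transcript. These sheets hold mostly genes that change during leaf ageing. Of the named genes 68.6% were called, 33.3% higher and 35.2% lower, more than the 15.6% and 18.4% of all genes. Counts for most groups are to be read against the shares of the named genes. NAC factors, transporters and senescence-associated homologs were listed without regard to change, so for these the shares of all genes are the closer reference. The sheets hold no gene named as a seed storage globulin or oil body protein, so the storage tissue itself was not checked by its defining genes. Genes for chloroplast proteins were abundant at C-I, when the organ was green.

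**Figure D2:**
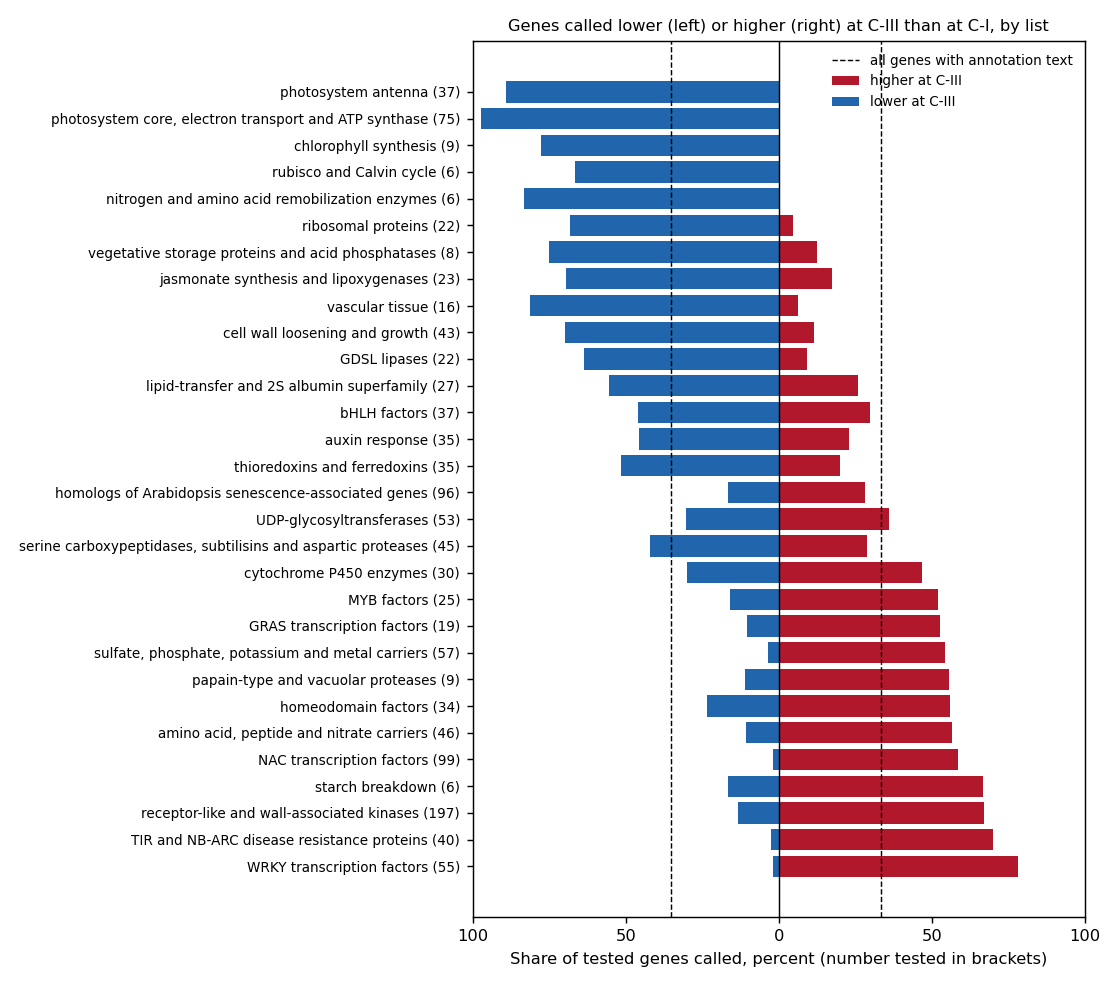
Share of the tested genes of 30 groups that were called lower (blue, to the left) or higher (red, to the right) at C-III, in percent, with the number tested in brackets. Dashed lines mark the shares over all genes with annotation text, 35.2% lower and 33.3% higher; photosynthesis groups lie on the left only and WRKY factors almost wholly on the right.

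Among the groups, photosynthesis held the most falling genes, out of 7033 genes lower in all. Most of the 7033 have no annotation text, and the text favours genes that change in ageing leaves. Of 127 tested genes for antenna proteins, photosystem cores, electron transport, Rubisco and chlorophyll synthesis, 117 fell and none rose (0 by voom weights as well, and 0 higher at an unadjusted p under 0.05), with a median log2 fold change of -3.29. Together they took 5.11 to 7.15% of all counts in the C-I libraries and 0.881 to 0.965% at C-III. In whole-organ RNA, fewer chloroplast-bearing cells and less of this RNA per cell cannot be told apart.

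Photosystem I subunit F, which docks plastocyanin, had the highest level of any transcript at C-I (Glyma05g00620.1). Its libraries held 135366, 100428 and 132595 normalized counts at C-I and 1625, 1702 and 1654 at C-III. It fell by 6.20 ± 0.25 on the log2 scale (SE, adjusted p = 1.47e-09), and the lowest C-I library was far above the highest C-III library. Photosystem I subunit D-2 (Glyma10g39460.1), on the side where ferredoxin is reduced, had 26027, 18988 and 24139 normalized counts at C-I and 1655, 1901 and 2297 at C-III. It fell by 3.56 ± 0.24 on the log2 scale (SE, adjusted p = 7.72e-08). Subunit O of the same complex (Glyma11g18640.1) fell further, from 11035 ± 1214 to 140 ± 49.6 (SD, n = 3), a change of -6.34. Plastocyanin 1 (Glyma06g02300.1), the copper protein that carries electrons to photosystem I, kept more, from 10320 ± 2341 to 1694 ± 80.5, and fell by 2.58. In this group of 75 genes for cores, electron transport and ATP synthase, 73 fell, with a median of -3.25.

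Antenna proteins bind most of the chlorophyll of a leaf. Of 37 genes tested, 33 fell, and the range of the group ran from -10.67 to -0.59. The B1 protein of light-harvesting complex II (Glyma16g27995.1) had 5216, 3478 and 5156 normalized counts at C-I and 4.74, 2.78 and 0 at C-III. It fell by 10.67 ± 0.62 on the log2 scale (SE, adjusted p = 2.56e-08), the largest fall of any antenna gene, and it was already at 8.16, 30 and 45.2 at C-II. Subunit 6 of the antenna (Glyma08g07880.1, light harvesting complex photosystem II) went from 3490 ± 453 to 29.2 ± 5.05. Gene 2.1 of the photosystem II antenna (Glyma14g01130.1) was the most abundant of the group at C-III, with 6631, 6763 and 7339 normalized counts at C-I and 3314, 3195 and 4054 at C-III, and its difference of -0.98 ± 0.20 (SE, adjusted p = 0.00153) was under the fold limit. Glyma01g28810.1, with the text light harvesting complex photosystem II, had 12763, 12521 and 11891 normalized counts at C-I and 1759, 1523 and 1804 at C-III. Its fall lay after C-II, where it had 7385, 11870 and 17421.

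Small subunits of Rubisco, the enzyme of carbon fixation, fell together. The most abundant one, Glyma13g07610.1, had 10357, 5825 and 9560 normalized counts at C-I and 237, 224 and 212 at C-III and fell by 5.21 ± 0.20 on the log2 scale (SE, adjusted p = 1.1e-09). Its relatives Glyma19g06340.1 and Glyma19g06370.1 went from 4467 to 362 and from 5158 to 443. The regulatory protein CP12 (Glyma19g40400.1), which binds Calvin cycle enzymes in the dark, had 3624 ± 633 at C-I and 1822 ± 461 at C-III, a difference of -1.01 ± 0.22 (SE, adjusted p = 0.00247) that was under the fold limit. These close copies were counted only through reads unique to each, so the levels of single copies are uncertain.

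In chlorophyll synthesis 7 of 9 genes fell. Protochlorophyllide oxidoreductase A (Glyma06g38160.1), the light-dependent step of the pathway, had 16760, 18910 and 15493 normalized counts at C-I and 185, 159 and 214 at C-III. It fell by 6.52 ± 0.24 on the log2 scale (SE, adjusted p = 6.06e-10), with most of the drop in place at C-II, where it had 479, 662 and 1017. Glutamyl-tRNA reductase, the entry step, fell for all 3 genes tested, Glyma02g38280.1 from 340 to 14, Glyma14g36420.1 from 302 to 10.3 and Glyma04g09520.1 from 446 to 97.4. Hydroxymethylbilane synthase (Glyma11g10040.1) went from 343 to 29.1 and uroporphyrinogen decarboxylase (Glyma11g35910.1) from 423 to 59.4. Subunit H of magnesium chelatase, which puts the metal in the ring, fell for Glyma19g32070.1 (907 to 156) but did not pass the limits for Glyma03g29330.1 (-1.36 ± 0.16, SE, adjusted p = 1.77e-05) or Glyma10g20570.1 (-0.71 ± 0.22, SE, adjusted p = 0.0158).

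Of 6 genes tested for chlorophyll breakdown 2 rose and 4 fell. Pheophytinase (Glyma11g16070.4), which cleaves phytol from magnesium-free chlorophyll, had 35.8, 18.5 and 18.9 normalized counts at C-I and 664, 599 and 787 at C-III and rose by 4.81 ± 0.24 on the log2 scale (SE, adjusted p = 7.66e-09). Non-yellowing 1 (Glyma11g02980.1), whose Arabidopsis counterpart removes the magnesium, also rose, from 17.5 ± 3.87 to 4825 ± 1081. Chlorophyllase 1, an enzyme that removes phytol from intact chlorophyll, fell for both genes. Glyma07g10840.1 had 272, 284 and 204 normalized counts at C-I and 7.11, 4.44 and 3.19 at C-III and fell by 5.46 ± 0.36 on the log2 scale (SE, adjusted p = 7.86e-08), although its C-II libraries were at 185, 334 and 570. The second chlorophyllase gene, Glyma09g31250.1, had no read at C-III and was at least 8.39-fold lower there, taking 3 reads per library as the floor. Genes with the text staygreen protein fell too, Glyma04g42260.1 from 36.6 to 2.5 and Glyma06g12550.1 from 50.6 to 13.8. Both were at low level and lay far below Non-yellowing 1 at C-III.

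**Figure D3:**
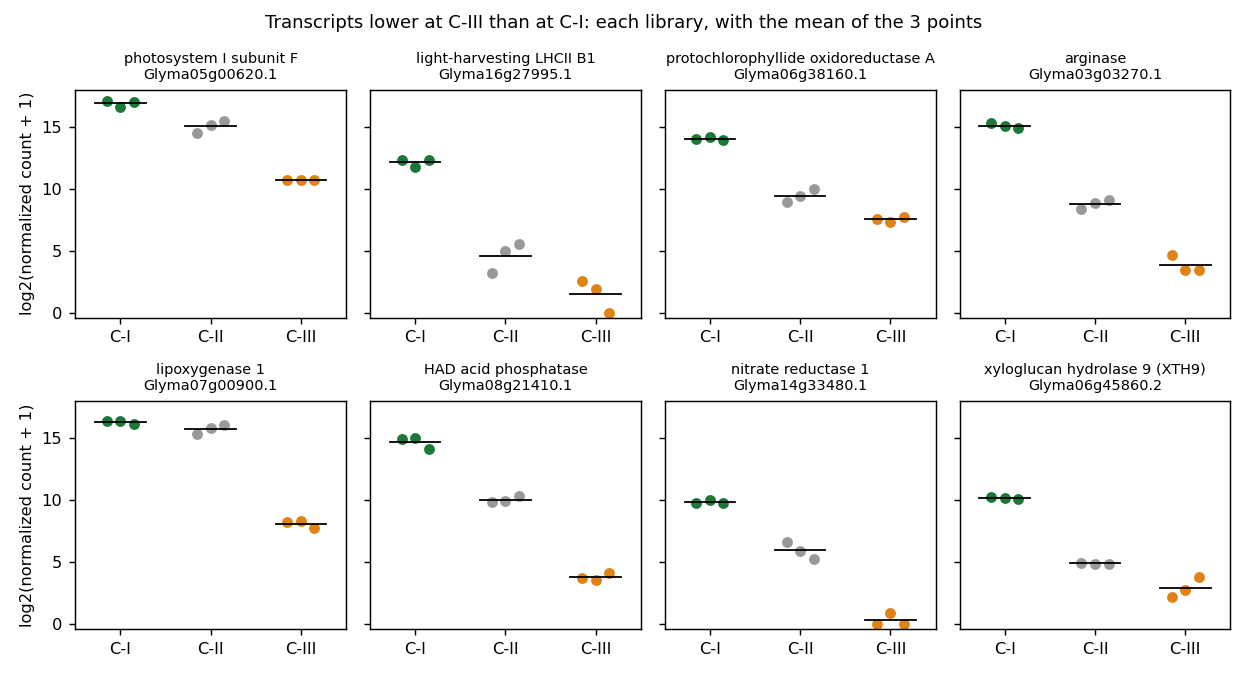
Each point is 1 library of C-I (green), C-II (grey) or C-III (orange) and each bar the mean of 3, on the scale of log2(normalized count + 1), for 8 transcripts lower at C-III. Photosystem I subunit F and lipoxygenase 1 kept a high level at C-II, while arginase and the light-harvesting gene had lost most of theirs by then.

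Of 6 genes tested in a group labelled nitrogen and amino acid remobilization, 5 fell and 0 rose (0 with voom weights and at an unadjusted p under 0.05). The 6 include no gene named as cytosolic glutamine synthetase or asparagine synthetase. They therefore do not stand for nitrogen remobilization as a whole. Arginase (Glyma03g03270.1), which splits arginine released from storage protein into ornithine and urea, had 40578, 33683 and 29910 normalized counts at C-I and 23.7, 9.72 and 9.57 at C-III. It fell by 11.26 ± 0.30 on the log2 scale (SE, adjusted p = 5.7e-11), among the 12 largest falls of all genes. Its C-II libraries held 332, 472 and 537, so it lay low from 15 days on. Plastid glutamine synthetase 2, which assimilates ammonium, fell for both genes, Glyma13g28180.5 from 515 ± 114 to 36 ± 10.6 and Glyma15g10890.2 from 417 ± 99 to 30.5 ± 16.4. Pyruvate orthophosphate dikinase (Glyma17g02371.1) went from 7154 to 2093 and allantoinase (Glyma13g31420.6), a step in the breakdown of ureides, from 21.8 to 3.82. Alanine aminotransferase 2 (Glyma07g05130.1) had 152 ± 23.3 at C-I and 128 ± 12.5 at C-III and was not called.

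Nitrate reductase 1, the first step of nitrate use, was nearly lost. Glyma14g33480.1 had 875, 1052 and 853 normalized counts at C-I and 0, 0.833 and 0 at C-III, a ratio of 3340-fold, with a 95% counting interval of 1140 to 16200. Its neighbour by number, Glyma14g33490.1, had 388, 1043 and 514 normalized counts at C-I and 0, 1.39 and 0 at C-III and fell by 8.80 ± 0.38 on the log2 scale (SE, adjusted p = 2.49e-09), and it was still at 898, 756 and 643 at C-II. Nitrite reductase 1 (Glyma02g14910.1), the next step, had a mean of 651 at C-I, then 2108 (C-II) and 361 (C-III) and was not called over the whole course. The group of 3 therefore had 2 genes lower and 0 higher (0 also with voom weights and at an unadjusted p under 0.05).

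Lipoxygenases, which oxygenate polyunsaturated fatty acids and are abundant proteins of soybean cotyledons, gave some of the highest levels. Of 23 tested genes with text for lipoxygenases or jasmonate synthesis, 16 fell and 4 rose. The median was -3.76, or -2.68 with 10 genes near the limit of detection in a stage set to their bounds or left out. Lipoxygenase 1 gene Glyma07g00900.1 had 83554, 86757 and 73028 normalized counts at C-I and 300, 317 and 211 at C-III and fell by 8.21 ± 0.24 on the log2 scale (SE, adjusted p = 1.07e-10). It was still at 40497, 57857 and 68402 at C-II. Relatives with the same text, Glyma13g42330.1 and Glyma15g03050.1, went from 17839 to 147 and from 3937 to 6.14. Glyma07g03910.1 was highest at the middle stage, with means of 6051 at C-I, then 12182 (C-II) and 229 (C-III). The genes with the text lipoxygenase 3 went the other way, Glyma07g04480.1 from 23 ± 9.01 to 319 ± 13.5 and Glyma16g01070.1 from 24.8 ± 5.81 to 283 ± 50.7. Allene oxide synthase (Glyma17g36530.2), which acts after lipoxygenase in jasmonate synthesis, rose from 45.1 to 175, but both tested genes with the text allene oxide cyclase 4 fell.

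Acid phosphatases of the HAD IIIB subfamily, to which the vegetative storage proteins of soybean belong, fell for all 5 genes tested. The strongest was Glyma08g21410.1, with 31046, 33251 and 18267 normalized counts at C-I and 11.8, 10.6 and 16 at C-III, which fell by 10.93 ± 0.24 on the log2 scale (SE, adjusted p = 2.47e-11). Glyma07g01730.1 went from 2924 ± 909 to 2.01 ± 1.05, and Glyma08g21390.1 had no read left at C-III and was at least 30.1-fold lower. Purple acid phosphatase 17 (Glyma05g33630.2) rose from 3.5 to 60.3, the only riser of the 8 genes in this group, while purple acid phosphatase 26 (Glyma17g11790.1) went from 757 to 61.7. Both tested Kunitz trypsin inhibitors, seed proteins that block digestive proteases, fell. Glyma16g33800.1 had 3726, 2545 and 3120 normalized counts at C-I and 5.92, 0.555 and 0 at C-III and Glyma08g45580.1 had 237 ± 172 at C-I and 0.79 ± 1.37 at C-III.

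Proteases did not share a direction. Among papain-type and vacuolar proteases 5 of 9 rose (55.6%) and 1 fell (11.1%). Xylem cysteine peptidase 2, a cysteine peptidase counted with vascular tissue instead, fell for all 3 genes tested. Among serine carboxypeptidases, subtilisins and aspartic proteases 13 of 45 rose (28.9%) and 19 fell (42.2%). These last shares were near the 33.3% and 35.2% of all annotated genes. The alpha-vacuolar processing enzyme (Glyma14g10620.1), an asparaginyl endopeptidase that matures other vacuolar proteins, had 146, 137 and 127 normalized counts at C-I and 14729, 13950 and 18184 at C-III. It rose by 6.82 ± 0.17 on the log2 scale (SE, adjusted p = 3.63e-11), with no overlap between the stages. A papain-type cysteine proteinase, Glyma15g19580.1, had 305, 470 and 229 normalized counts at C-I and 7507, 8278 and 10248 at C-III and rose by 4.74 ± 0.25 on the log2 scale (SE, adjusted p = 1.12e-08). Its relative Glyma09g08100.1 went from 264 ± 30.6 to 3126 ± 284, and Glyma04g36470.1 from 3.1 ± 2.75 to 1004 ± 131. The gamma-vacuolar processing enzyme (Glyma06g05350.1) had 197 ± 16.3 at C-I and 429 ± 42.3 at C-III and stayed under the fold limit (1.11 ± 0.15, SE, adjusted p = 5.77e-05). Cysteine protease Glyma14g09440.1, with a granulin repeat, was high at both ends (5601 ± 344 at C-I and 8752 ± 1791 at C-III) and likewise under it. Glyma19g41120.1 was the only gene lower in the papain-type and vacuolar group, from 1686 to 555. Its log2 fold change of -1.58 was near the limit and lost the call without the first C-I library.

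An aspartyl protease, Glyma08g43330.1, reached one of the highest levels of any protease at C-III. Its libraries held 104, 139 and 97.9 normalized counts at C-I and 15869, 15189 and 16413 at C-III and it rose by 7.12 ± 0.20 on the log2 scale (SE, adjusted p = 8.73e-11). Of 3 genes for aspartic proteinase A1, 2 rose, Glyma09g00810.1 (7.8 to 943) and Glyma15g11670.1 (4.76 to 553), and 1 fell. The subtilase Glyma17g35490.1 rose from 8.8 ± 6.15 to 1738 ± 107. Other subtilases and aspartyl proteases fell. Glyma09g08120.1 went from 1206 ± 105 to 11.7 ± 1.86 and Glyma03g35900.1 from 309 to 0.58. Subtilase Glyma14g06990.3 had 263, 91.4 and 219 at C-I and no read in any C-II or C-III library, at least 62.5-fold lower.

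Of 6 genes for starch breakdown 4 rose and 1 fell. Alpha-amylase-like 2 (Glyma14g39930.1) had 239, 215 and 228 normalized counts at C-I and 3291, 3858 and 4504 at C-III and rose by 4.08 ± 0.16 on the log2 scale (SE, adjusted p = 1.05e-09). Chloroplast beta-amylase, which releases maltose from starch, rose for Glyma01g41190.1 (26.9, 30.8 and 28.5 normalized counts at C-I and 958, 1170 and 1034 at C-III), whereas beta-amylase 5 (Glyma06g45700.1) fell from 165 to 42.3. A second chloroplast beta-amylase, Glyma05g05750.2, passed at 1.55 and lost the call without the second C-III library. Sucrose-phosphate synthase (Glyma06g48200.1), which makes the sugar moved in the phloem, had 35.8, 29.9 and 44.6 normalized counts at C-I and 1559, 1677 and 1932 at C-III and rose by 5.53 ± 0.24 on the log2 scale (SE, adjusted p = 2.25e-09). Of the 5 sugar carrier and sucrose genes it and sugar transporter 14 (Glyma08g03940.1, 7.82 to 140) rose, 3 were not called and 0 fell (0 with voom weights and at an unadjusted p under 0.05), with a median of -0.72. In fatty acid breakdown, acyl-CoA oxidase 1 (Glyma11g03800.1) had 224 ± 22.7 at C-I and 151 ± 5.86 at C-III and was not called, while multifunctional protein 2 (Glyma17g03070.2) fell from 63.5 to 13.1.

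**Figure D4:**
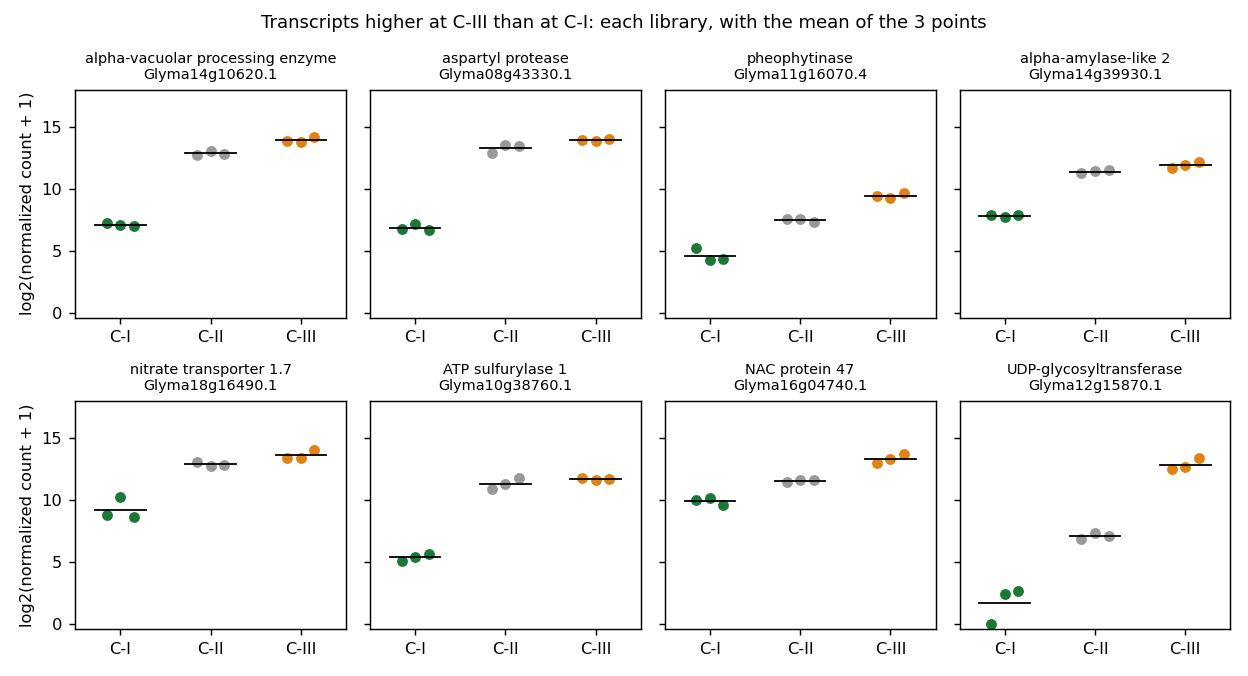
Each point is 1 library of C-I (green), C-II (grey) or C-III (orange) and each bar the mean of 3, on the scale of log2(normalized count + 1), for 8 transcripts higher at C-III. The processing enzyme, the aspartyl protease, the nitrate transporter and ATP sulfurylase were near their final level at C-II, and the UDP-glycosyltransferase was not.

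Carriers rose far more often than they fell. Of 46 amino acid, peptide and nitrate carriers 26 rose (56.5%) and 5 fell (10.9%), with a median of 2.03 (1.80 with genes near the limit of detection at their bounds). Of 57 carriers of sulfate, phosphate, potassium and metals 31 rose (54.4%) and 2 fell (3.51%). The shares higher and lower were 15.6% and 18.4% over all genes, and 33.3% and 35.2% over all annotated genes. Nitrate transporter 1.7 (Glyma18g16490.1), which in Arabidopsis loads nitrate into the phloem of older leaves, was by far the most abundant. Its libraries held 433, 1231 and 403 normalized counts at C-I and 10683, 10887 and 16716 at C-III and it rose by 4.38 ± 0.35 on the log2 scale (SE, adjusted p = 4.68e-07), the second C-I library being the highest of its stage. Ammonium transporter 1;1 rose for both genes, Glyma10g26690.1 with 89.5 ± 35.7 at C-I and 1088 ± 173 at C-III and Glyma20g21030.1 with 34.3 ± 9.58 at C-I and 672 ± 76.6 at C-III. Type 1;2 (Glyma10g31130.1) fell from 94.1 to 18.4. Lysine histidine transporter 1 (Glyma16g06740.2), a carrier of amino acids into cells, had 5.97, 0.879 and 2.81 normalized counts at C-I and 263, 257 and 263 at C-III. Amino acid transporter 1 (Glyma09g21070.2) had no read at C-I and 87.6, 72.7 and 86.1 at C-III, at least 19.3-fold higher. The study's list of nitrate and ammonium transporters had 15 of 30 higher (50%) and 4 lower (13.3%).

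Sulfate carriers were the group with the largest share of risers among the mineral carriers, 22 of 30 higher (73.3%) and 2 lower (6.67%). Over all genes 15.6% and 18.4% were called. Sulfate transporter 4.1, which in Arabidopsis releases sulfate from the vacuole, rose for Glyma18g52270.1 (35.9 ± 3.41 at C-I and 432 ± 80.4 at C-III) and Glyma02g10590.2 (7.67 ± 3.25 at C-I and 259 ± 37 at C-III). Sulfate transporter 2;1 went both ways, with Glyma06g11150.1 from 478 ± 87.8 to 2419 ± 376, Glyma08g14700.1 from 1.71 to 273 and Glyma14g34170.1 down from 472 ± 91.5 to 58.2 ± 2.92. The study's list for sulfate assimilation, which also holds thioredoxins and was drawn from genes that change in leaves, had 6 of 7 genes higher and 0 lower (0 with voom weights and at an unadjusted p under 0.05). ATP sulfurylase 1 (Glyma10g38760.1), which activates sulfate, had 32.8, 42.2 and 49.8 normalized counts at C-I and 3477, 3184 and 3328 at C-III and rose by 6.31 ± 0.21 on the log2 scale (SE, adjusted p = 3.43e-10). Its second gene, Glyma20g28980.1, went from 23.6 ± 11.4 to 695 ± 21.7, and APS reductase 3 (Glyma15g11540.1), the reducing step, from 72.7 ± 30.1 to 1051 ± 134. All 3 were close to their C-III level at C-II, with means of 2615, 698 and 1030 there.

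Of 46 potassium transporters 12 rose (26.1%) and 4 fell, with a median of 0.28, and of 32 phosphate transporters 12 rose (37.5%) and 2 fell, with a median of 1.11. Over all genes 15.6% were called higher and 18.4% lower. The inward potassium channel KAT1 (Glyma08g24960.1, potassium channel in Arabidopsis thaliana 1) had 8.96, 23.7 and 8.03 normalized counts at C-I and 874, 943 and 1482 at C-III and rose by 6.36 ± 0.38 on the log2 scale (SE, adjusted p = 3.51e-08). K+ uptake transporter 3 rose for Glyma19g28110.1 (48.4 to 246) and was lost for Glyma16g26470.1, which had 11.9, 22 and 12 at C-I and no read at C-III, too few for a test once a mean of at least 10 was required. Phosphate transporter 1;7 (Glyma10g33030.1) went from 112 ± 9.18 to 1548 ± 185.

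Most NAC factors rose. Of 99 tested, 58 were higher (58.6%) and 2 lower (2.02%), with a median of 2.03 (1.71 with 22 genes near the limit of detection bounded or left out). The shares were 15.6% and 18.4% over all genes, and 33.3% and 35.2% over all annotated genes. The most abundant, NAC domain containing protein 47 (Glyma16g04740.1), had 1015, 1171 and 755 normalized counts at C-I and 8184, 10077 and 13715 at C-III and rose by 3.43 ± 0.22 on the log2 scale (SE, adjusted p = 5.31e-08). Another gene with that text, Glyma16g26740.1, went from 27.2 ± 3.78 to 2269 ± 428, and Glyma06g38410.1 from 29.1 ± 23.6 to 2181 ± 623. NAC 83 (Glyma18g53954.1) had 449 ± 30.8 at C-I and 1869 ± 425 at C-III. The 2 genes lower, both NAC 007, had C-I means of 4.54 (Glyma05g04250.3) and 3.38 (Glyma12g00760.1) and no read at C-III. Neither kept its call with a mean of at least 10 required.

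WRKY factors, many of which act in responses to pathogens and in leaf ageing, had the highest share of risers among the groups drawn by annotation. The sheets name 57 WRKY genes, only part of the family, and hold mostly genes that change in leaves. This share is therefore not comparable with that of a list drawn without regard to change, such as the NAC factors. Of 55 tested 43 rose (78.2%) and 1 fell, with a median of 2.25. WRKY 15 (Glyma17g18480.1) was the most abundant, with 131, 239 and 117 normalized counts at C-I and 1196, 1172 and 1257 at C-III, and rose by 2.96 ± 0.23 on the log2 scale (SE, adjusted p = 3.78e-07). WRKY 40 (Glyma06g06530.1) had 0, 8.79 and 4.42 normalized counts at C-I and 473, 525 and 474 at C-III, and WRKY 33 rose for Glyma11g29720.1 (32.5 ± 19.1 at C-I and 400 ± 105 at C-III) and Glyma02g39870.1 (51.5 ± 29 at C-I and 275 ± 13.8 at C-III). Of 7 genes with the text WRKY 33 tested, 5 rose, while Glyma03g05220.2 had 10.4 ± 6.28 at C-I and 12.4 ± 5.25 at C-III and was 1 of the 2 that did not pass. The 1 gene lower, WRKY 49 (Glyma07g16040.2), went from 3.45 to 0.185, a call lost without the second C-I, the first C-III or the third C-III library.

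Other regulators were more divided. Among GRAS factors 10 of 19 rose and 2 fell, including SCARECROW-like 8 for Glyma16g29900.1 (187 ± 14.8 at C-I and 900 ± 119 at C-III), Glyma10g37640.1 (5.51 to 191) and Glyma20g30150.1 (15.5 to 165). Among homeodomain factors 19 of 34 rose and 8 fell. All 6 genes with the text BEL1-like homeodomain 1, of a family that pairs with KNOX proteins, rose. The most abundant, Glyma13g38910.1, reached 6868, 7217 and 7412 at C-III from 266, 334 and 296, and rose by 4.59 ± 0.17 on the log2 scale (SE, adjusted p = 6.52e-10). Homeobox 1 (Glyma17g10490.1) went from 116 ± 23.5 to 2973 ± 224. All 3 genes named homeobox protein 22 fell, the most abundant (Glyma04g09910.1) from 234 ± 7.1 to 7.55 ± 2.95. MYB factors had 13 of 25 higher and 4 lower, and Myb 73 (Glyma11g05550.1) went from 70.1 ± 42.4 to 902 ± 94.6. Of 37 bHLH factors 11 rose and 17 fell. One of these, Glyma07g05500.1, had 1305, 1267 and 1426 at C-I and 1 C-III library with any read, with values of 0, 0.555 and 0, a ratio of 7200-fold, with a 95% counting interval of 1990 to 59400. Ethylene response factors had 7 of 27 higher and 6 lower, near or under the shares of all annotated genes.

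Genes grouped by their text for wall loosening and growth mostly fell. Of 43 tested 30 fell (69.8%) and 5 rose (11.6%), with a median of -3.18 (-2.94 with 16 genes near the limit of detection bounded or left out). Over all annotated genes 35.2% fell and 33.3% rose. Xyloglucan endotransglucosylase/hydrolase 9 (Glyma06g45860.2), which cuts and rejoins wall xyloglucan, had 1224, 1126 and 1074 normalized counts at C-I and 3.55, 5.83 and 12.8 at C-III and fell by 7.24 ± 0.32 on the log2 scale (SE, adjusted p = 3.01e-09). Xyloglucan endotransglucosylase/hydrolase 5 (Glyma02g07610.1) went from 1050 ± 111 to 1.95 ± 1.5 and polygalacturonase 2 (Glyma02g03960.1), which cuts pectin, from 1156 ± 112 to 30.9 ± 6.33. Expansin A4 (Glyma18g39850.1), a protein that loosens walls without cutting them, had 281, 182 and 283 and then 0, 1.94 and 0. At C-II these 4 transcripts had means of 28.6, 1.59, 42.3 and 2.99, so their loss lay before 15 days.

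Other wall enzymes rose, among them xyloglucan enzymes of the kind that fell above. A list of xyloglucan and expansin enzymes had 6 of 20 genes higher (30%) and 10 lower (50%). Its median was -1.28 (-0.56 with genes near the limit of detection bounded or left out). Xyloglucan endotransglycosylase 6 (Glyma15g18360.1) had 2.99, 0 and 6.82 normalized counts at C-I and 1728, 1552 and 2698 at C-III and was highest at C-II, with 3932, 5996 and 4719. Its relative Glyma09g07070.1 followed the same course, with means of 0.987 at C-I, then 800 (C-II) and 538 (C-III). Xyloglucan endotransglucosylase/hydrolase 30 rose for both genes. Glyma09g34140.1 had 3 reads at C-I, all in the third library, and 505, 426 and 456 at C-III, a ratio of 1150-fold, with a 95% counting interval of 394 to 5580, and Glyma01g01770.1 went from 1.71 to 270. In the cellulose synthase family, cellulose synthase-like A02 fell for Glyma12g08990.1 (2289 ± 116 at C-I and 2.57 ± 1.88 at C-III) and Glyma11g19490.1 (542 to 2.08), whereas cellulose synthase-like B4 rose for Glyma06g46450.1 (42.9 ± 16.1 at C-I and 1729 ± 386 at C-III) and fell for Glyma12g31810.1 (1385 to 263).

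Of 8 genes for cell division and histones 5 fell and 1 rose. CYCLIN D1;1 (Glyma02g03490.1), which acts at entry into the cell cycle, had 290, 308 and 248 normalized counts at C-I and 0, 4.72 and 0 at C-III and fell by 7.30 ± 0.53 on the log2 scale (SE, adjusted p = 1.77e-07), with 177, 281 and 264 still at C-II. Linker histone H1-3 (Glyma11g08000.1) rose, from 714 ± 51 to 3883 ± 420. Beta-6 tubulin fell for Glyma03g27970.1 (643 ± 142 at C-I and 73.6 ± 12.9 at C-III) and not beyond the limit for Glyma19g30770.1 (-1.08 ± 0.18, SE, adjusted p = 0.000288). Ribosomal proteins, of both the cytosol and the plastid, had 15 of 22 lower (68.2%) and 1 higher (4.55%), with a median of -2.90. Over all annotated genes 35.2% were lower and 33.3% higher. The sheets name only these 22 and hold mostly genes that change in leaves, so the count does not stand for ribosomal proteins in general. Plastid ribosomal protein L11 (Glyma01g40920.1) had 6896, 6650 and 5303 normalized counts at C-I and 253, 343 and 330 at C-III and fell by 4.35 ± 0.21 on the log2 scale (SE, adjusted p = 5.57e-09). The riser was ribosomal protein L5 B (Glyma18g41730.1), from 5.3 to 35.4.

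Markers of other tissues took small shares of the counts, and those of vascular tissue mostly fell. Of 16 genes of vascular tissue 13 fell and 1 rose. The group took 0.0191 to 0.0204% of counts at C-I and 0.0111 to 0.0146% at C-III. Its median of -3.10 became -1.55 with genes near the limit of detection bounded or left out, and where a mean of at least 10 normalized counts was required 3 of these falls were called. Xylem cysteine peptidase 2, of maturing xylem vessels, had no read at C-III for Glyma04g01640.1 (C-I 17.9, 41.3 and 30.9) or Glyma06g01710.1 (C-I 23.9, 22 and 16.5). Sieve element occlusion by forisomes 1 (Glyma10g00250.1), a protein that plugs sieve tubes of legumes, went from 399 ± 40.3 to 38.7 ± 3, while sieve element occlusion e (Glyma08g13870.2) rose from 53.6 ± 5.26 to 270 ± 47.2. Stomagen (Glyma18g25845.1), a peptide that promotes stomata in Arabidopsis leaves, had 104, 75.6 and 90.7 at C-I and no read at C-III, at least 29.5-fold lower. The part of a shift in cell types in the other results was not tested. Of 8 genes with meristem or bud text 4 fell and 1 rose, and of 5 with root or nodule text 2 fell and 2 rose, the highest being early nodulin-36a (Glyma01g03470.1) from 721 ± 157 to 12 ± 3.34. The meristem and bud group took 0.0099 to 0.011% of counts at C-I and 0.0129 to 0.0153% at C-III. Alcohol dehydrogenase 1 and a hypoxia-responsive gene, markers of low oxygen given here because C-I plants grew in closed boxes, fell for all 3 genes tested from C-I means of 9.96 to 27.8 (Glyma02g42770.1, Glyma04g41990.1 and Glyma06g12780.1), and 0 rose by either tool or at an unadjusted p under 0.05. The first 2 were not called with a mean of at least 10 required. Their part in the other results was not tested.

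Receptor-like and wall-associated kinases, which sense signals at the cell surface, were the largest group tested. Of 197 genes 132 rose (67%) and 26 fell, with a median of 2.44 (1.91 with 53 genes near the limit of detection bounded or left out). The leucine-rich repeat kinase Glyma09g02205.1 had 23.9, 88.8 and 57.8 normalized counts at C-I and 4028, 3844 and 3248 at C-III and was highest at C-II, with 10873, 7069 and 9489. S-locus lectin kinase Glyma07g08780.1 went from 322 ± 108 to 2488 ± 147 and the cysteine-rich receptor-like kinase Glyma10g39920.1 from 161 ± 67.3 to 2181 ± 193. Receptor-like kinase 1 (Glyma07g11680.2) fell from 145 ± 19.3 to 1.02 ± 0.674. Intracellular receptors of the TIR and NB-ARC classes, which recognize pathogen proteins, rose for 28 of 40 genes and fell for 1. Glyma18g52400.2 had 74.6, 133 and 98.3 normalized counts at C-I and 2083, 2114 and 2406 at C-III and rose by 4.46 ± 0.20 on the log2 scale (SE, adjusted p = 3.43e-09). Genes listed by the study for the response to chitin, a fungal wall polymer, and drawn from genes that change in leaves, had 92 of 157 higher and 3 lower.

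Secreted defence proteins were evenly split, 5 of 19 higher and 5 lower. Pathogenesis-related 4 (Glyma19g43470.1) rose from 9.7 ± 11.3 to 121 ± 15.6 and basic pathogenesis-related protein 1 (Glyma15g06780.1) from 12.7 ± 13.5 to 147 ± 166. Cysteine-rich secretory proteins Glyma13g01250.1 and Glyma01g38690.1 fell from 109 to 0.672 and from 73.2 to 0. Small heat shock proteins also went both ways. Heat shock protein 21 (Glyma18g10760.2), of the plastid, had 1349, 1118 and 1163 normalized counts at C-I and 7.11, 3.61 and 7.98 at C-III, and an HSP20-like chaperone, Glyma18g41650.1, rose from 154 ± 23.2 to 2239 ± 416.

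Hormone genes gave small groups with named changes. Of 35 auxin genes 8 rose (22.9%) and 16 fell (45.7%), against 33.3% and 35.2% of all annotated genes. Auxin response factor 7 (Glyma19g39330.2), an activator of auxin-induced growth, had 496, 413 and 443 normalized counts at C-I and 7.11, 16.1 and 19.1 at C-III and fell by 5.0 ± 0.32 on the log2 scale (SE, adjusted p = 5.21e-08). Auxin efflux carriers fell for Glyma07g34190.2 (533 ± 1.67 at C-I and 23.6 ± 13.1 at C-III) and rose for Glyma09g38700.2 (27.5 ± 8.92 at C-I and 436 ± 153 at C-III), and a GH3 gene, whose products attach amino acids to auxin and jasmonate (Glyma19g44310.1), rose from 18.6 ± 2.2 to 385 ± 8.37. Gibberellin 2-oxidase (Glyma15g39750.1), which inactivates gibberellin, had 23.9, 16.7 and 20.1 normalized counts at C-I and 488, 597 and 710 at C-III and rose by 4.82 ± 0.21 on the log2 scale (SE, adjusted p = 2.29e-09). Gibberellin 3-oxidase 1, a synthetic step, fell for Glyma15g01500.1, which had 32.8, 27.2 and 25.3 at C-I and 1 read at C-III, and was not called for Glyma13g43850.1 (347 ± 74.4 at C-I and 288 ± 51.3 at C-III). Cytokinin response factor 2 (Glyma11g02140.1) went from 124 to 0.185. Genes of the EIN3 family, which carry the ethylene signal in the nucleus, were higher for Glyma13g03660.1 (634 ± 84 at C-I and 1958 ± 70.4 at C-III) and Glyma14g04550.1 (369 ± 29.1 at C-I and 1136 ± 17.9 at C-III) and under the fold limit for Glyma13g03700.1 (1.23 ± 0.15, SE, adjusted p = 2.32e-05).

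Families of secondary metabolism had members called in both directions, as did the annotated genes as a whole (33.3% higher and 35.2% lower). UDP-glycosyltransferases, which attach sugars to small molecules, had 19 of 53 higher and 16 lower, close to the shares of all annotated genes. The largest rise among all genes was in this family. Glyma12g15870.1 had 0, 4.39 and 5.22 normalized counts at C-I and 5929, 6384 and 10818 at C-III and rose by 11.17 ± 0.53 on the log2 scale (SE, adjusted p = 4.74e-09), with 114, 163 and 139 at C-II. Glyma20g26420.1 went from 1.12 ± 0.974 to 1547 ± 342. UDP-glucosyl transferase 85A2 (Glyma20g05700.1) was among the most abundant at C-I, with 32237, 20064 and 29549 normalized counts at C-I and 187, 195 and 129 at C-III, and fell by 7.31 ± 0.22 on the log2 scale (SE, adjusted p = 1.48e-10). UDP-glycosyltransferase gene Glyma08g19290.1 had 421, 900 and 780 at C-I and no read at C-III, at least 229-fold lower. Cytochrome P450 enzymes had 14 of 30 higher (46.7%) and 9 lower (30%). A P450 of family 82 (Glyma19g01831.1) had no read at C-I and 785, 678 and 868 at C-III, at least 182-fold higher, and one of family 93 (Glyma10g12060.1) went from 394 ± 21.1 to 3780 ± 462. Chalcone and stilbene synthase gene Glyma19g27930.1, at the entry to flavonoids, fell from 1981 ± 311 to 58.4 ± 15, and of 10 flavonoid genes 4 fell (40%) and 2 rose (20%).

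Glutathione transferases with the same text, TAU 19, went in opposite directions for 2 of 3 genes, the other not being called. Glyma08g18640.1 had 11816, 13922 and 10712 normalized counts at C-I and 158, 140 and 211 at C-III and fell by 6.17 ± 0.21 on the log2 scale (SE, adjusted p = 3.27e-10). Glyma15g40190.1 had 224, 511 and 196 normalized counts at C-I and 2942, 3121 and 4036 at C-III and rose by 3.56 ± 0.30 on the log2 scale (SE, adjusted p = 6.45e-07). Copper/zinc superoxide dismutase 2 (Glyma12g30260.1), which removes superoxide, fell from 1732 ± 271 to 24.3 ± 4.52 and ascorbate peroxidase 4 (Glyma02g37160.1) from 253 ± 6.85 to 0.463 ± 0.802. Ferredoxin-like genes at 3 consecutive loci fell together, Glyma12g29100.1 from 6618 ± 480 to 6.83 ± 4.4, Glyma12g29090.2 from 5923 to 13.7 and Glyma12g29110.1 from 3318 to 387.

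Lipid-related families fell more often than they rose. Of 27 genes of the lipid-transfer and 2S albumin superfamily 15 fell and 7 rose. Glyma17g32100.1 had 9359, 7328 and 9072 normalized counts at C-I and 2.37, 3.33 and 1.6 at C-III and fell by 11.31 ± 0.27 on the log2 scale (SE, adjusted p = 3.41e-11). Lipid transfer protein 1 (Glyma01g32750.1) had 15255 ± 5274 at C-I and 3005 ± 348 at C-III, while Glyma18g05890.1 of the same superfamily rose from 10.8 ± 11.5 to 673 ± 480 after a peak at C-II of 13684, 5224 and 5958. GDSL lipases had 14 of 22 lower and 2 higher, with a median of -3.16 (-2.11 with genes near the limit of detection bounded or left out). Li-tolerant lipase 1 (Glyma19g43920.1) had 173, 192 and 130 at C-I and no read at C-III, at least 53.9-fold lower. Fatty acid desaturase 2 (Glyma03g30070.1), which makes linoleate, had 3544, 946 and 3094 normalized counts at C-I and 21.3, 19.7 and 16 at C-III and fell by 6.78 ± 0.43 on the log2 scale (SE, adjusted p = 5.21e-08).

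Soybean homologs of Arabidopsis senescence-associated genes went in both directions. Of 96 tested, 27 were higher (28.1%) and 16 lower (16.7%), against 15.6% and 18.4% of all genes. The median was 0.41 against -0.01 over all annotated genes. The list is defined by sequence likeness to Arabidopsis genes. Aldehyde dehydrogenase 2B4 (Glyma06g19560.1) rose from 1009 ± 94.8 to 7439 ± 850 and a proteinase inhibitor propeptide gene (Glyma02g18320.1) from 751 ± 104 to 2832 ± 502, while glyoxalase II 3 (Glyma13g33590.1) fell from 3279 ± 171 to 1046 ± 229.

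Several transcripts were abundant at both ends. Metallothionein 2A (Glyma07g15800.2), a small metal-binding protein, had 114570, 76787 and 88706 normalized counts at C-I and 36680, 38545 and 53667 at C-III, a difference of -1.12 ± 0.28 (SE, adjusted p = 0.00507) that was under the fold limit although the stages did not overlap. Metallothionein 3 (Glyma12g24840.1) had 11443, 13841 and 9467 normalized counts at C-I and 19749, 28662 and 48642 at C-III and a difference of 1.40 ± 0.33 (SE, adjusted p = 0.00381), which passed the fold limit without the second C-I or the first C-III library. MLP-like protein 34 (Glyma09g15450.1) rose from 7919 ± 394 to 32283 ± 6834. The highest transcript of C-III without annotation text was Glyma04g01130.1, with 20209, 21028 and 19811 normalized counts at C-I and 61521, 67925 and 85232 at C-III, and another, Glyma17g34900.1, had 86.6, 65.9 and 88.7 normalized counts at C-I and 40461, 42557 and 49436 at C-III. Of those without text that were highest at C-I, Glyma12g35050.1 had 86291, 94178 and 84182 normalized counts at C-I and 2442, 2580 and 2841 at C-III and Glyma13g34290.1 had 73236, 87729 and 56771 normalized counts at C-I and 161, 170 and 219 at C-III. An acyl transferase/acyl hydrolase (Glyma07g13780.1), of the patatin-like lipases, had 30702, 33243 and 26447 normalized counts at C-I and 4.74, 10.3 and 19.1 at C-III and fell by 11.42 ± 0.35 on the log2 scale (SE, adjusted p = 1.67e-10). The largest fall of all, in a gene with the text differentially expressed in soybean precursor (Glyma15g06270.1), took it from 12283 ± 252 to 3.5 ± 3.47.

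Most of the change was in place at the middle stage. For the 12997 genes called, the mean log2 value at C-II lay between those of C-I and C-III for 9564 (73.6%), past C-III for 2927 (22.5%) and on the far side of C-I for 506 (3.89%). The median gene had made 75.8% of its log2 change by C-II, 76.5% for risers and 75.2% for fallers. A share of at least 50% had been made by 9748 genes, 75% of them. These positions share the C-I and C-III libraries with the calls and are given as a description.

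**Figure D5:**
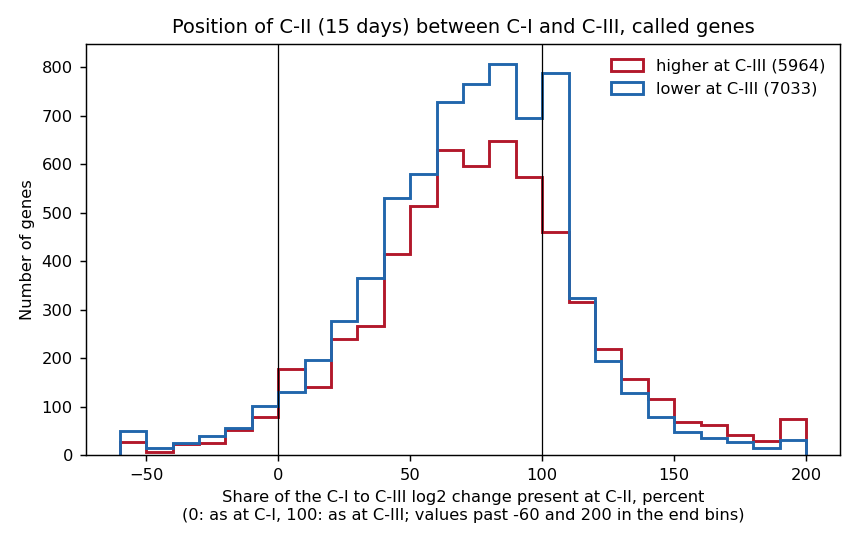
Number of called genes (vertical) by the share of their C-I to C-III log2 change that was present at C-II, in percent (horizontal), for genes higher (red) and lower (blue) at C-III. Both directions peak between 60 and 110%, and the 2927 genes past 100% were further from C-I at C-II than at C-III.

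By group, the calls lay in different steps. Between C-I and C-II, 35 of 55 WRKY genes were called higher, and between C-II and C-III 5 were lower, with medians of 2.12 and 0.10 for the steps. Kinases followed the same order, with medians of 2.48 and -0.01. Wall-loosening genes had -2.84 and then -0.34. The 127 photosynthetic genes as one group had a median log2 fold change of -1.0 to C-II, when 39 were lower, and -2.17 to C-III, when 97 were. Within it, antenna genes had medians of -0.94 and -2.72 with 12 and 31 of 37 lower in the steps, whereas the 9 chlorophyll synthesis genes had -1.58 and -1.23 with 5 and 3 lower. The study's larger list for chlorophyll biosynthesis, of 72 genes drawn from those that change in leaves, had 47 lower in the first step and 29 in the second. NAC genes rose in both steps, 43 in the first and 25 in the second of 99. Lipoxygenase and jasmonate genes fell mostly in the second, 13 of 23 against 2 in the first. The timing of the groups was not tested against each other.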

How the data were processed

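Poly(A) RNA of soybean cotyledons was sequenced by the authors as paired-end reads of 100 bases, with 3 libraries in a lane. They aligned reads to Gmax_189 transcripts with Bowtie, and kept only reads that matched a single transcript. The authors deposited variance-stabilized log2 values from DESeq 1.0. Most aligned reads were discarded in that step, so close paralogs and isoforms were seen only through their own reads.

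These log2 values were converted back to normalized counts. The result was checked against a supplementary count table for 1999 transcripts (largest relative gap 4.72e-06), and values were whole multiples of 1 read (tolerance 0.05) in 100% of cases up to 1000 reads. Transcripts whose reads in the replicates of any stage came to 10 or more were fitted on log2(normalized count + 1) with limma 3.58.1 in R 4.3.3, using all 9 cotyledon libraries, stage as the term and an intensity trend, with Benjamini-Hochberg adjustment over 53357 transcripts. Calls needed an adjusted p below 0.05 and a log2 fold change beyond 1.5. A count test had not been planned because the deposited unit is log2, and limma with voom weights on the recovered reads is an alternative. Simulated data were used to test the fit. Detection was limited to 3 reads in each library, a mean of 4.27 normalized counts at C-I and 3.06 at C-III. Where all libraries of a stage had no read, folds are lower bounds against it. Intervals and limits cover counting error only.

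Each gene is represented by its transcript with the highest mean. Named genes are, among called transcripts without overlap between the stages, the 12 largest rises and falls with a mean of at least 50, up to 4 risen and 4 fallen with the highest level per list, the 10 highest levels at each stage, and uncalled genes where a sentence is about a list. Not all are named. Members and lists were chosen with earlier results of these data known, and after matching, the text patterns of the lists were corrected and protein families were added. Annotation text came from supplementary sheets, some held only in part. No identifier matched the RefSeq gene table (Glycine_max_v4.0), so no sequence or coordinate is given. Leaf libraries and the stage differences listed by the authors were not used.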

Additional observations from a re-analysis of the deposited data

How the results depend on the processing

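Over all transcripts 16435 were called (7447 higher, 8988 lower), of which 16353 members (7437 and 8916). With the adjusted p alone and no fold limit, the counts were 25143 transcripts (12154 higher) and 25061 members (12144 higher). With a mean normalized count of at least 10 required, which left 34850 transcripts to test, 5785 transcripts and 5784 members were lower. No other setting moved these counts by more than 1.5 times. Leaving out each library in turn gave 15427 to 16705 transcripts called (6739 to 7594 higher, 8309 to 9134 lower) and 15336 to 16646 members (6739 to 7594 and 8309 to 9083). A replicate block gave 16579 calls (7514 higher, 9065 lower), 16276 of them the same calls. The shared numbers do not pair the samples, since correlations of same-numbered libraries ran from -0.08 to 0.07. Counts elsewhere were 16386 with TMM factors, 14823 on the deposited values, 16356 without the read filter, 16432 with the 6 libraries of both stages alone, 15281 and 11021 with pseudocounts of 0.1 and 5, 13710 with reads thinned to the shallowest library and 18263 with voom weights. Their share higher was 42.5 to 48.7%, and the median log2 fold change lay between -0.08 and 0.05. Of 388 named transcripts called, 342 were called wherever tested and 0 reversed. A pseudocount of 5 lost 32 of these calls, 0.1 lost 12, thinning 11, the deposited values 5 and voom 3. Leaving out a library gave 376 to 388 named calls and 1152 to 1201 calls in the gene groups, and the block 387 and 1203. Small counts depended most on the filter and the pseudocount. With a mean of at least 10 the falls called were 7 of 14 for GDSL lipases, 10 of 16 for UDP-glycosyltransferases, 5 of 8 for homeodomain factors and 2 of 5 for amino acid, peptide and nitrate carriers. With a pseudocount of 5 the rises were 7 of 12 for phosphate transporters, 6 of 11 for bHLH factors and 3 of 7 for the lipid-transfer superfamily. The shallowest library held 2389927 reads, so levels of a few reads at C-I are the least certain.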
